A study of Homo sapiens with 4 samples.

Results

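The data described here compare the chromatin contacts of acetylated regions in senescent cells with METTL14 knocked down and in senescent cells with a control hairpin. They are 2 of the 4 libraries of the series, chosen by the genotype and treatment labels. The cells are IMR90, a line of diploid fibroblasts from human embryonic lung, grown in low oxygen. Per the labels' protocols, all senescent libraries come from IMR90 cells made senescent by an inducible fusion of the estrogen receptor with H-RAS carrying G12V. The compared groups are senescent shMETTL14 (1 library) and senescent shcontrol (1 library). A senescent shMETTL3 library is set beside them where values of the named loci and the median span are given. A control library of the series is not used. METTL4 stands in the treatment protocol at the place where genotype and title name METTL14, and the genotype was followed. How many hairpins or cell clones stand behind each library is not given in the labels.

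In HiChIP, nuclei are fixed, neighbouring DNA ends are ligated to each other, and the ligated fragments are enriched by immunoprecipitation. The antibody recognised histone H3 acetylated on lysine 27 (H3K27ac), which marks active promoters and enhancers. METTL14 is the RNA-binding partner of METTL3 in the complex that writes N6-methyladenosine on RNA, and METTL3 holds the catalytic site. Senescent fibroblasts leave the cell cycle and secrete cytokines, chemokines, proteases and growth factors, together called the senescence-associated secretory phenotype (SASP). Enhancers of SASP genes gain acetylation in senescence driven by RAS, so the comparison asks whether contacts of such regions differ once METTL14 is depleted.

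The files list pairs of anchors with the number of paired-end tags (PETs) joining them. An anchor is an acetylated region, a PET is a read pair with 1 end in each anchor, and the span is the distance between the anchors' midpoints. The shMETTL14 file held 936492 PETs in 368291 anchor pairs, and the shcontrol file 552029 PETs in 258943 pairs. Together they named 55094 anchors and 486187 pairs by exact ends, and 52684 anchors but only 141047 pairs were listed in both. These shared pairs were 38.3% of the shMETTL14 pairs with 67.5% of their PETs, and 54.5% of the shcontrol pairs with 75.2% of their PETs. Levels are given as CPM, which here means PETs per 1000000 PETs of the library, and ratios are those of CPM unless a depth is named. There is no replicate, so no test between conditions is possible. Every interval given is an exact 95% interval from the PET counts, covers counting error only, and cannot tell a knockdown effect from a difference between 2 libraries. Since the fragments were enriched by acetylation, PETs depend on the acetylation of the anchors as well as on how often they meet. Acetylation by itself was not measured here, so its part in any ratio was not tested. Contacts below are PETs.

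The promoters below are those of loci whose contacts are described further on, from RefSeq on GRCh38.p14, 250 bases before to 50 after the start of transcription. Capitals mark matches on either strand to TGANTCA (AP-1), GGNNTTTCC (a short NF-kB form), the core of the interferon-stimulated response element or TGTTTAC (forkhead factors). The CXCL8 and MIR31HG promoters lie at loci with a lower CPM in shMETTL14, and so does that of FENDRR, a long noncoding RNA transcribed away from FOXF1. The ANXA1 and IFIT3 promoters lie at loci with a higher CPM in shMETTL14.
CXCL8: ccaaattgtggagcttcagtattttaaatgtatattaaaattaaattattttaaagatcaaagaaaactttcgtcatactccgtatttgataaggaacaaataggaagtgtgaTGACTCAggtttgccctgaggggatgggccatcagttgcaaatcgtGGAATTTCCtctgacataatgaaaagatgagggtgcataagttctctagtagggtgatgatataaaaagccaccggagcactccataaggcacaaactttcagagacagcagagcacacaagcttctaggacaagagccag
MIR31HG: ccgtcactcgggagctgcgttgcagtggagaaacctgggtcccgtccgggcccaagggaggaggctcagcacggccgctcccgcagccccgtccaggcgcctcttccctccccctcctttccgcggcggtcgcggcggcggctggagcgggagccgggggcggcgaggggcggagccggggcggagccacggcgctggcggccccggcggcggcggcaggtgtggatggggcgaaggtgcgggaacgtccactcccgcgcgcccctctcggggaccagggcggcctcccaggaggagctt
FENDRR: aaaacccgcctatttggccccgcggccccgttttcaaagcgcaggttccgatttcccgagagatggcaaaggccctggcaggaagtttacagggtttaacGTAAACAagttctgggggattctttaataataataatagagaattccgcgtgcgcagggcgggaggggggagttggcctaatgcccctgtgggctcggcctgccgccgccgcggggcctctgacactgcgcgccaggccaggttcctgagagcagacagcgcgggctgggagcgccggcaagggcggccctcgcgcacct
ANXA1: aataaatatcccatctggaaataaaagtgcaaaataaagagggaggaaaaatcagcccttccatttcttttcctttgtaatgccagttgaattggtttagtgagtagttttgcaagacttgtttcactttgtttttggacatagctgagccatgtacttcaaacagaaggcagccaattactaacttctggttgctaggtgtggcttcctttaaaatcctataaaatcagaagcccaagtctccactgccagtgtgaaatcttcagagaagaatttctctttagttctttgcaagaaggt
IFIT3: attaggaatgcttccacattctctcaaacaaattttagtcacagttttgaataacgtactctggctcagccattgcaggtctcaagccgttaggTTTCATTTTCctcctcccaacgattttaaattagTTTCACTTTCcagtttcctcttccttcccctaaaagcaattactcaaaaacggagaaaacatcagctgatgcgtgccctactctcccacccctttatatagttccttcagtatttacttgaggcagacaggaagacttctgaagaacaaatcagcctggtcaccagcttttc
The CXCL8 window (chr4:73740319-73740618, plus strand) holds the AP-1 letters 137 bases and the NF-kB letters 91 bases before the start. Of 35114 promoters of this length, 7.71% hold the AP-1 letters and 6.26% the NF-kB letters. IFIT3 (chr10:89327747-89328046, plus strand) holds the interferon element at 156 and at 122 bases before the start, as 3.57% of promoters do at least once. FENDRR (chr16:86508811-86509110, minus strand) holds the forkhead letters 150 bases before the start, as do 3.42% of promoters. MIR31HG (chr9:21559749-21560048, minus strand) and ANXA1 (chr9:73151615-73151914, plus strand) hold none of these letters in this window. A match describes the letters and is no evidence of binding.

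The labelled cell type was checked at the start sites of marker genes. Of 17 fibroblast and matrix genes, 16 had a usable position and all 16 had an anchor within 5 kb, and 13 held 50 or more PETs over both libraries. Of 7 epithelial, endothelial and blood genes with a usable position, EPCAM, CDH1, SFTPC, CDH5 and CD3E had no anchor. PTPRC had 18 PETs in shMETTL14 and 6 in shcontrol, and none of the 7 reached 50 PETs. The depletion of METTL14 itself was not measured here. The METTL14 start site carried 17 PETs in shMETTL14 and 13 in shcontrol, a CPM ratio of 0.771 (0.353 to 1.73). The start site of METTL3 carried 9 PETs in shMETTL14 and 16 in shcontrol.

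The plainest difference between the libraries lay in strong contacts over long distances. Over all PETs, 41.5% spanned under 50 kb in shMETTL14 and 39.7% in shcontrol, while 29.1% spanned 100 to 500 kb in shMETTL14 and 31.2% in shcontrol. As ratios these are 1.05 (1.04 to 1.05) and 0.932 (0.927 to 0.938). On each of the 22 autosomes the share at 100 to 500 kb was lower in shMETTL14, with ratios from 0.888 to 0.982. From 500 to 2000 kb the share was 15.3% in shMETTL14 and 14.7% in shcontrol, a ratio of 1.04 (1.03 to 1.05). The median span of a PET was 75.5 kb in shMETTL14, 69.7 kb in shMETTL3 and 82.6 kb in shcontrol. A shorter median span was thus not particular to shMETTL14, though both knockdowns are set against the same shcontrol library.

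To separate strong from weak contacts, the shMETTL14 library was thinned to the 552029 PETs of shcontrol. Pairs joined by 1 PET then summed to 71893 PETs in shMETTL14 and 72095 in shcontrol at 100 to 500 kb, a ratio of 0.997 (0.987 to 1.01). Pairs of 4 to 9 PETs gave 27519 PETs in shMETTL14 and 31161 in shcontrol, a ratio of 0.883 (0.869 to 0.898). Pairs of 10 or more PETs gave 11562 PETs in 740 pairs in shMETTL14 and 16191 PETs in 950 pairs in shcontrol, a ratio of 0.714 (0.697 to 0.731). In these classes, set by each library's own counts, the ratio was lower the more PETs the pairs held.

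The same strong pairs at short range went the other way. At 5 to 50 kb, pairs of 10 or more PETs held 93029 PETs in shMETTL14 and 88047 in shcontrol, a ratio of 1.06 (1.05 to 1.07). At 50 to 100 kb they held 15253 PETs in shMETTL14 and 17498 in shcontrol, a ratio of 0.872 (0.853 to 0.891). The ratio was lowest beyond that. It was 0.721 (0.70 to 0.743) for pairs of 100 to 200 kb. Pairs of 200 to 500 kb gave 0.701 (0.673 to 0.730). At 500 to 1000 kb only 41 such pairs were left in shMETTL14 and 50 in shcontrol, with 589 and 718 PETs and a ratio of 0.820 (0.734 to 0.916).

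**Figure D1:**
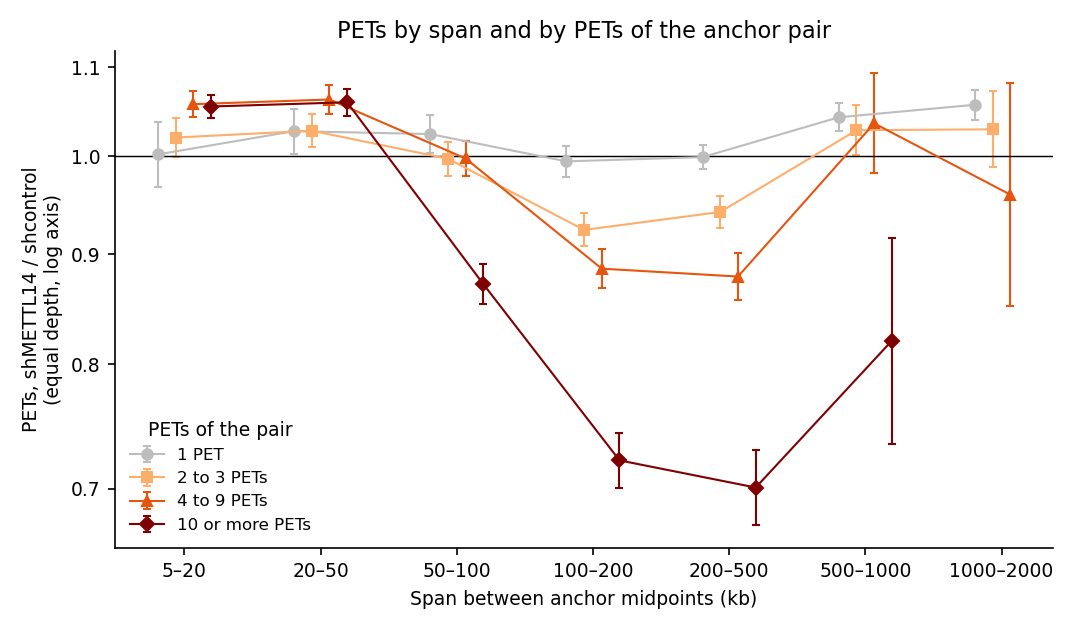
Ratio of PETs in shMETTL14 over shcontrol at equal depth (vertical, log axis) for 7 span classes (horizontal, kb), with a line for each class of PETs per anchor pair and bars for the 95% counting interval. Pairs of 10 or more PETs sit above 1 below 50 kb and at 0.721 and 0.701 from 100 to 500 kb, and pairs of 1 PET lie between 0.994 and 1.06; strong pairs beyond 1000 kb (1 in shMETTL14, 2 in shcontrol) are not drawn.

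Since each library's own counts chose the strong pairs above, they were also chosen in the shMETTL3 library, which takes no part in the ratio. The 1113 pairs with 10 or more shMETTL3 PETs at 100 to 500 kb held 21109 PETs in shMETTL14 and 15233 in shcontrol before thinning, a CPM ratio of 0.817 (0.80 to 0.834). The 6116 such pairs at 5 to 50 kb gave 1.02 (1.02 to 1.03). Pairs of 1 PET in shMETTL3 gave 0.943 (0.930 to 0.956) at 100 to 500 kb. With this choice the pairs of 1 PET were also below shcontrol, and the strong pairs lay further below.

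Single anchor pairs showed this by name. A pair passed the size rule when it held 20 or more PETs over both libraries, differed at least 2-fold in CPM, after adding a pseudocount of 1 on that scale to each side, and had a counting interval that left out 1. Of 9397 pairs measured, 355 were higher in shMETTL14 (3.78%) and 365 lower (3.88%), and at equal depth 204 were higher and 255 lower of 5895. Under 50 kb, 301 were higher and 173 lower of 6850, and from 50 kb on 54 were higher and 192 lower of 2547. At 100 to 200 kb the count was 15 higher and 75 lower of 791, with a median log2 ratio of -0.21 over all 791. After scaling each span class to its own total, 240 were higher and 239 lower under 50 kb, and 73 higher and 161 lower beyond.

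**Figure D2:**
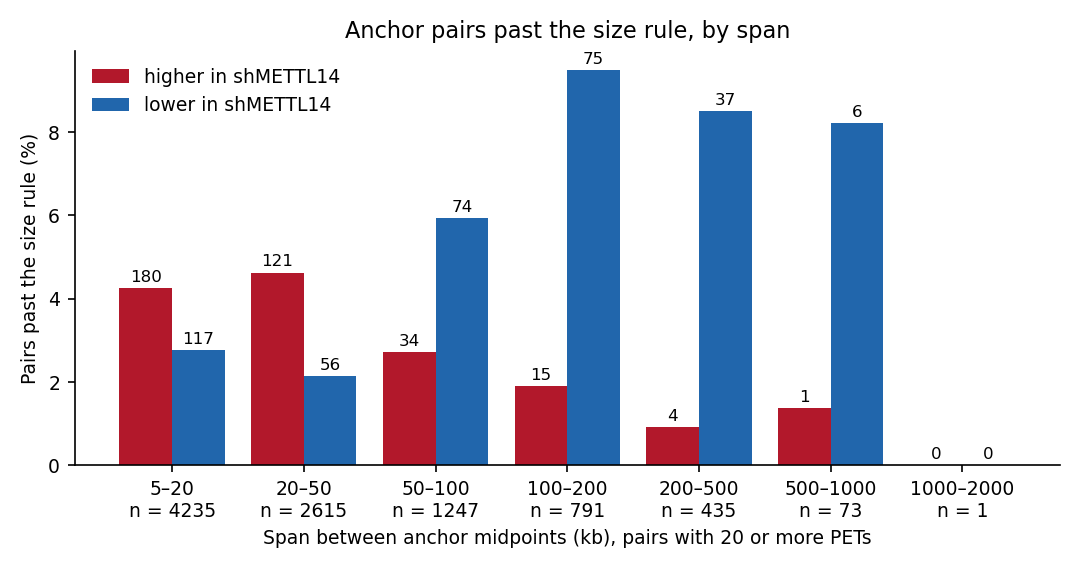
Share of anchor pairs past the size rule (vertical, %) by span (horizontal, kb), higher in shMETTL14 on the left of each pair of bars and lower on the right, with the number of pairs on each bar. More pairs were higher than lower below 50 kb (180 and 117, then 121 and 56), and more were lower in every class from 50 to 1000 kb.

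The 10 lowest pairs with 50 or more PETs spanned 62.0 to 240 kb. Their median span was 125 kb, against 22 kb for the 10 highest pairs and 22.7 kb for all measured pairs. Positions are on hg19, and gene positions on that build were held for a limited set of genes only. The lowest pair joined the start of TNFRSF11B, which encodes osteoprotegerin, a decoy receptor for RANKL, to a region 103 kb away (chr8:119961619-119971161 and chr8:120053523-120085585). It held 14 PETs in shMETTL14 and 43 in shcontrol, or 14.9 and 77.9 CPM, a ratio of 0.192 (0.0970 to 0.358). In shMETTL3 it stood at 38.5 CPM.

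MIR31HG came next. It is the host gene of the microRNA miR-31 and yields a long noncoding RNA that is known to act in oncogene-driven senescence. The pair joined the anchor over its start (chr9:21546571-21564376) to a region 126 kb away (chr9:21671641-21691156), between MIR31HG and MTAP. It held 27.8 CPM in shMETTL14, 65.7 in shMETTL3 and 121 in shcontrol, from 26, 41 and 67 PETs. The ratio of shMETTL14 to shcontrol was 0.229 (0.140 to 0.365). This locus lies beside CDKN2A and CDKN2B, the cell cycle inhibitors of senescence, whose start sites had ratios of 0.939 (0.681 to 1.31) and 0.871 (0.659 to 1.15).

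The start of FOXF1 and FENDRR (chr16:86537543-86555099) and a region 212 kb upstream (chr16:86325492-86342541) formed another of these pairs. FOXF1 is a transcription factor of lung mesenchyme. The pair held 29.9 CPM in shMETTL14, 52.9 in shMETTL3 and 90.6 in shcontrol, and the ratio of shMETTL14 to shcontrol was 0.330 (0.200 to 0.535). Inside NRG1, which encodes a ligand of ERBB receptors, a pair spanning 212 kb held 21.4 CPM in shMETTL14 and 63.4 in shcontrol. Between SEMA3C and HGF, the gene of the ligand of the MET receptor, a pair held 34.2 CPM in shMETTL14 and 92.4 in shcontrol. Its nearer anchor ended 57.4 kb from HGF.

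The remaining low pairs lay between genes or at the end of one. A pair of 240 kb between KRR1 and PHLDA1, a gene induced by ERK signalling, held 33.1 CPM in shMETTL14 and 114 in shcontrol. A pair of 62.0 kb that starts at the 3' end of KCNJ15, a potassium channel gene, held 31.0 CPM in shMETTL14, 94.6 in shMETTL3 and 101 in shcontrol. A pair between GPD2 and GALNT5 on chromosome 2 had a ratio of 0.280 (0.153 to 0.495). Pairs on chromosome 4 near 26 Mb (0.259, interval 0.140 to 0.461) and on chromosome 11 near 122 Mb (0.342, interval 0.209 to 0.551) could not be given a gene. All 10 low pairs were also below shcontrol in shMETTL3, with log2 ratios from -1.0 to -0.09, but that library was set against the same shcontrol library.

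The highest pairs were short. At ETS1, a transcription factor downstream of RAS and ERK, the anchor within 5 kb of the start (chr11:128443195-128455868) and its neighbour 21.6 kb upstream (chr11:128464825-128477535) held 58 PETs in shMETTL14 and 9 in shcontrol. That is 61.9 and 16.3 CPM, a ratio of 3.8 (1.87 to 8.72). At ANXA1, which encodes the anti-inflammatory protein annexin A1, the start (chr9:75760723-75774305) and a region 31.3 kb before it (chr9:75730137-75742322) held 68.3 CPM in shMETTL14, 32.1 in shMETTL3 and 23.5 in shcontrol. The ratio of shMETTL14 to shcontrol was 2.90 (1.58 to 5.74). A pair of 24.9 kb joined the start of NECTIN4, an epithelial adhesion gene, to the starts of PFDN2 and NIT1, with 56.6 CPM in shMETTL14 and 18.1 in shcontrol.

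Other high pairs lay inside PCDH9, EHF and AKAP6, at SUSD1, between BMP2 and HAO1, beyond SIK1 and beyond PREP. Their ratios ran from 2.78 to 3.27. The pair beyond SIK1 was the exception among them for shMETTL3, which had 84.9 CPM there, above the 57.7 of shMETTL14 and the 19.9 of shcontrol. In the other 9 high pairs shMETTL3 lay between shMETTL14 and shcontrol.

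**Figure D3:**
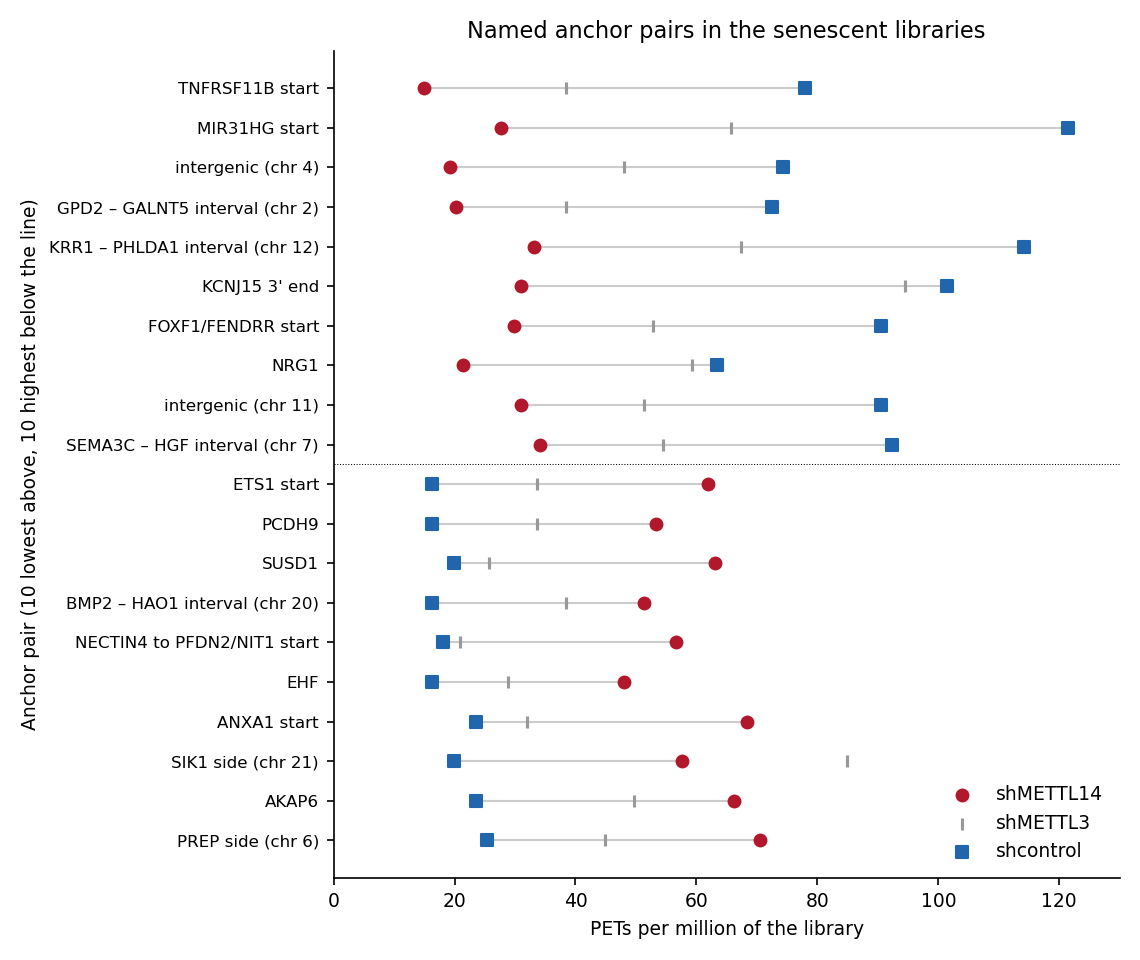
CPM (horizontal) for the 10 lowest anchor pairs (above the dotted line) and the 10 highest (below it) with 50 or more PETs, in shMETTL14 (red circles), shMETTL3 (grey bars) and shcontrol (blue squares). The MIR31HG pair lies at 27.8 in shMETTL14 and 121 in shcontrol, and the ETS1 pair lies at 61.9 in shMETTL14 and 16.3 in shcontrol.

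Lower pairs also gathered at the same loci more than higher ones. Pairs past the rule that share an anchor were joined into groups of contacts. The 365 lower pairs formed 259 groups, of which 208 were single pairs, and the 355 higher pairs formed 306 groups, of which 265 were single pairs. The biggest groups held 9 lower pairs and 3 higher pairs. Lower pairs were also longer, with a median span of 53.1 kb against 19.6 kb for higher pairs. The part of span in this grouping was not tested. Since the called pairs chose the region, each region below is also given a ratio for its remaining PETs. A count of a region's pairs below shcontrol likewise includes the pairs that chose it, and 48.3% of all 9397 measured pairs were below shcontrol.

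The FOXF1 and FENDRR region (chr16:86252569-86555099) held 9 lower pairs, 6 of them meeting at the upstream anchor named above. All PETs inside it numbered 799 in shMETTL14 and 890 in shcontrol, a ratio of 0.529 (0.480 to 0.583), and without the 9 pairs 0.597 (0.534 to 0.667). In shMETTL3 the whole region stood at 0.949 of shcontrol. Of its 25 pairs with 20 or more PETs, 20 were below shcontrol in shMETTL14.

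COL6A1 and COL6A2 encode chains of collagen VI, a matrix protein that forms beaded filaments around cells. Their region (chr21:47389136-47524751) held 5 lower pairs and 442 PETs in shMETTL14 against 487 in shcontrol, a ratio of 0.535 (0.469 to 0.610), and 0.596 (0.513 to 0.693) without those pairs. A region between COPS8 and COL6A3, which holds no gene placed here (chr2:238060224-238220844), held 9 lower pairs, with a ratio of 0.658 (0.610 to 0.710) and 0.705 (0.651 to 0.765) without them. There 39 of 41 measured pairs were below shcontrol. In shMETTL3 these regions stood at 0.839 and 0.946 of shcontrol.

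The chemokine genes CXCL8, CXCL6 and CXCL1, which attract neutrophils and belong to the SASP, shared a region (chr4:74532658-74769613) with a group of 4 lower pairs. It held 589 PETs in shMETTL14 and 555 in shcontrol, a ratio of 0.626 (0.556 to 0.704), and all 16 of its measured pairs were below shcontrol. Without the 4 pairs the ratio was 0.670 (0.592 to 0.758). Here shMETTL3 was lower still, at 0.552 of shcontrol. The lowest pair joined the CXCL8 anchor to a region 61.1 kb before it and held 4 PETs in shMETTL14 and 17 in shcontrol.

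At MIR31HG (chr9:21546571-21691156) 4 lower pairs lay in a region with 286 PETs in shMETTL14 and 310 in shcontrol, a ratio of 0.544 (0.461 to 0.641) and of 0.711 (0.579 to 0.875) without those pairs. At VMP1, an autophagy gene whose 3' part holds the gene of the microRNA miR-21, the region (chr17:57830135-57937890) had a ratio of 0.564 (0.500 to 0.636) and 0.625 (0.542 to 0.721) without its 4 pairs. At NALF1, the gene of an ion channel subunit, the region (chr13:107835855-108031315) held 8 lower pairs, with 0.556 (0.502 to 0.615) and 0.621 (0.552 to 0.699). Between ITGB1, an integrin gene, and NRP1 it was 0.604 (0.532 to 0.685) and 0.648 (0.566 to 0.743).

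Not every such region was low throughout. Around KCNJ15, ERG and ETS2 (chr21:39614498-40333288) 9 lower pairs held 392 PETs in shMETTL14 and 549 in shcontrol. The remaining PETs of the region went the other way, with a ratio of 1.18 (1.05 to 1.32). At the noncoding RNA genes NEAT1 and MALAT1 (chr11:65135952-65344218) the ratio was 0.806 (0.722 to 0.901), and without the 5 pairs it was 0.958 (0.844 to 1.09), an interval that holds 1. The KRR1 to PHLDA1 region had 0.814 (0.773 to 0.857) and 0.859 (0.814 to 0.907) without its 6 pairs. The PAPPA region had 0.820 (0.766 to 0.878) and 0.856 (0.798 to 0.919) without its 4 pairs.

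Of the 8 groups of 3 higher pairs, the one at IFIT2 and IFIT3 (chr10:91033167-91103584), antiviral genes induced by interferon, stood furthest from shcontrol. It held 176 PETs in shMETTL14 and 39 in shcontrol, a ratio of 2.66 (1.87 to 3.87), and 2.60 (1.66 to 4.24) without the called pairs. The ANXA1 region (chr9:75730137-75774305) had 240 PETs in shMETTL14 and 77 in shcontrol, a ratio of 1.84 (1.42 to 2.41). Outside its 3 pairs the ratio was 1.28 (0.916 to 1.81), and in shMETTL3 the region stood at 0.850 of shcontrol. The ERGIC1 region (chr5:172216249-172388282), beside the phosphatase gene DUSP1, was the one with most PETs, 2218 in shMETTL14 and 856 in shcontrol. Its ratio was 1.53 (1.41 to 1.65), and 1.5 (1.38 to 1.63) without the called pairs, and shMETTL3 stood at 1.02 of shcontrol. Without their called pairs, the regions at CDH13, at UQCC1 with GDF5 and EIF6, and on chromosome 11 near 12.2 Mb had 1.49 (1.1 to 2.06), 1.33 (1.07 to 1.67) and 1.58 (1.07 to 2.37). The LHFPL2 region had 1.20 (0.971 to 1.49), an interval that holds 1. The SUSD1 region held no other PETs, so its 2.59 describes the called pairs alone. In shMETTL3 the whole regions at IFIT2 and IFIT3, CDH13 and UQCC1 stood at 1.77, 1.85 and 1.67 of shcontrol. Those on chromosome 11, at LHFPL2 and at SUSD1 stood at 1.77, 1.24 and 1.49 there, so shMETTL3 was also above shcontrol in them.

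**Figure D4:**
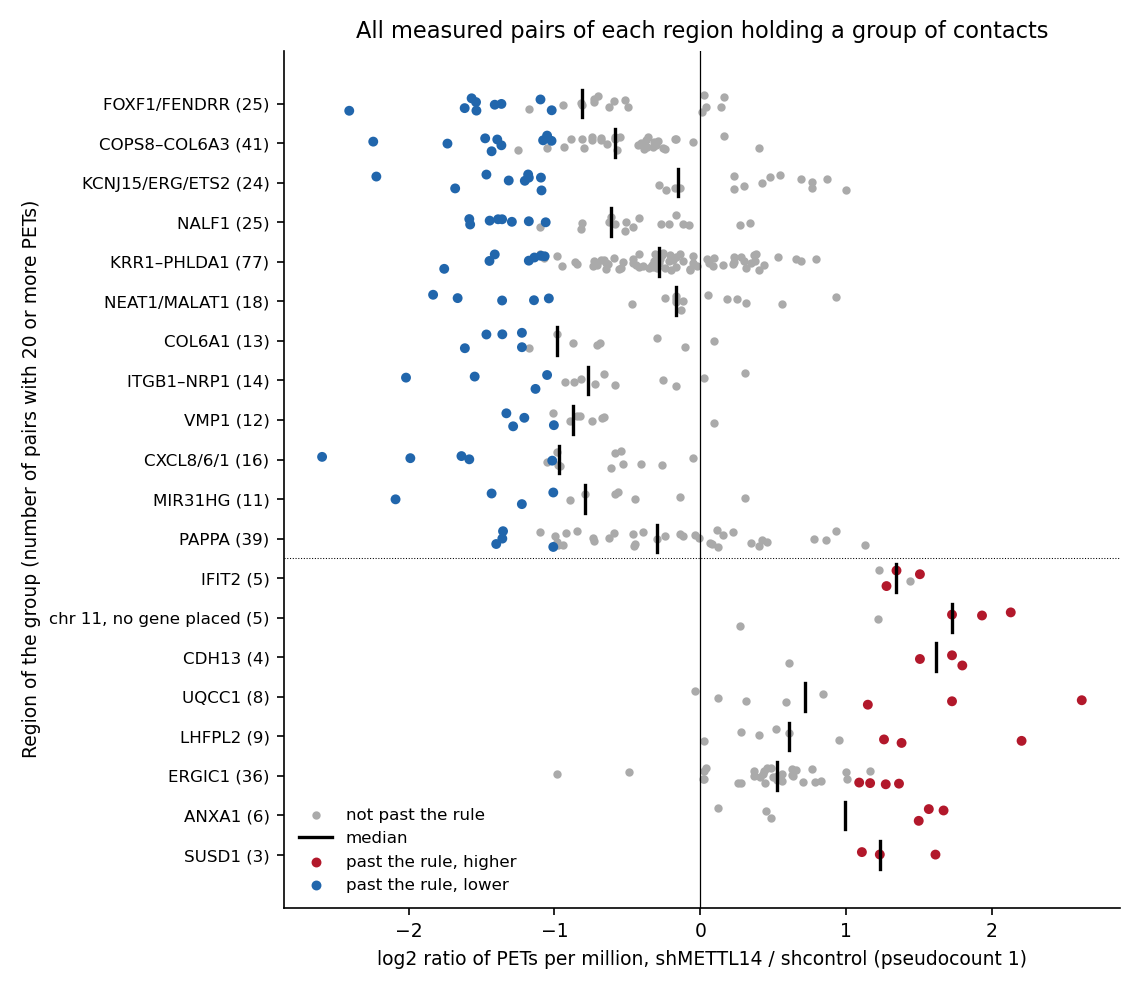
Log2 ratio of CPM, shMETTL14 over shcontrol (horizontal), for every pair with 20 or more PETs in the regions of 12 lower groups (above the dotted line) and 8 higher groups (below it), with pairs past the size rule in colour, others in grey and the median as a black bar. At COL6A1 and CXCL8 nearly all points lie left of 0, while those at KCNJ15, ERG and ETS2 fall on both sides with a median of -0.16.

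Summed over all its contacts, an anchor differed less than a single pair did. Of 17180 anchors with 50 or more PETs over both libraries, 463 were higher in shMETTL14 by the size rule (2.69%) and 237 lower (1.38%), and the median log2 ratio was 0.01. With shMETTL14 thinned to equal depth, 209 were higher and 221 lower of 12144, so the excess of higher anchors was not seen at equal depth. Among the 2396 anchors with 200 or more PETs, 6 were higher and 13 lower. The highest of these 6 was an anchor in HMGA2 (chr12:66340130-66356623), the gene of a chromatin protein of senescent foci. It had 234 CPM in shMETTL14, 106 in shMETTL3 and 70.6 in shcontrol, a ratio of 3.31 (2.35 to 4.78). The anchor at the HMGA2 start did not share this, with 246 CPM in shMETTL14 and 234 in shcontrol, a ratio of 1.05 (0.844 to 1.31).

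Other anchors among the 10 highest were on chromosome 3 between MGLL and KBTBD12 (125 CPM in shMETTL14 and 34.4 in shcontrol), in CDH13, in MYO1E and in FLI1, an ETS factor gene beside ETS1. Another of the 10 lay 128 kb beyond TGFB2, with 94.0 CPM in shMETTL14 and 34.4 in shcontrol. The lowest lay between CD109 and COL12A1 on chromosome 6, where 2 anchors had 87.6 and 76.9 CPM in shMETTL14 against 255 and 217 in shcontrol. The anchor over the start of TEAD1, a partner of YAP, had 59.8 CPM in shMETTL14 and 163 in shcontrol, a ratio of 0.367 (0.258 to 0.518). An anchor at the end of HAO1 had 107 CPM in shMETTL14 and 299 in shcontrol. An anchor between FERMT1 and BMP2, 232 kb from BMP2, had 74.7 in shMETTL14 and 187 in shcontrol. An anchor between CXCL5 and CXCL3 had 49.1 in shMETTL14, 52.9 in shMETTL3 and 121 in shcontrol.

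At the promoters of 139 listed genes the balance was on the low side. PETs were summed over anchors within 5 kb of the start site, which gave 102 genes with 50 or more PETs over both libraries. None of these was higher by the size rule and 7 were lower, beside 2.69% higher and 1.38% lower among all 17180 anchors. Summed over every anchor within 50 kb, 1 gene was lower by the rule, BMP2, and FOXF1 and TBX5 stood at 0.531 and 0.534. The counting interval lay above 1 for 4 genes and below 1 for 34, against 9.71% and 9.39% of all 17180 anchors. Anchors with more PETs had intervals off 1 more often. Of those with 200 to 500 PETs 15.1% lay above and 18.1% below, and of those with 500 or more 19.3% above and 35.5% below. The median log2 ratio of the 102 genes was -0.26. Their contacts under 50 kb had a summed ratio of 0.881 (0.847 to 0.917) and those from 50 kb on 0.832 (0.808 to 0.857), beside 1.05 and 0.969 for all PETs. The lists were chosen with earlier results of these data known, and start sites of other genes were not measured here. The low balance therefore cannot be read as a property of the lists, here or in the paragraphs on each list below.

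Lung mesenchyme factors had the lowest median, -0.75 over 5 genes, and all 5 intervals lay below 1. FOXF1 had 255 CPM in shMETTL14, 410 in shMETTL3 and 513 in shcontrol, a ratio of 0.498 (0.417 to 0.593). TBX5, a T-box factor, had 69.4 CPM in shMETTL14 and 149 in shcontrol, a ratio of 0.467 (0.332 to 0.655). TBX2, HOXA5 and FOXC2 had ratios of 0.613 (0.495 to 0.761), 0.594 (0.468 to 0.753) and 0.589 (0.368 to 0.943). Of 22 pairs with 20 or more PETs at these genes, 10 were lower by the size rule and none higher, beside 3.88% lower and 3.78% higher over all measured pairs and 7.54% lower among those of 50 kb or more. Of the 10 lower pairs, 4 lay at HOXA5, 3 at FOXF1, 2 at TBX2 and 1 at TBX5. FOXC2 had 0.718 (0.425 to 1.20) at equal depth, an interval that holds 1. The anchor at the FOXF1 start ended 45.8 kb from FOXC2, so the 5 genes are not 5 separate loci. FOXF1 and FOXC2 are on chromosome 16 and TBX2 on chromosome 17, which as wholes stood at 0.930 (0.910 to 0.95) and 0.890 (0.876 to 0.905). The part of these chromosome values in the result was not tested.

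Among SASP cytokines and chemokines, 7 of 15 intervals lay below 1 and none above, with a median log2 ratio of -0.32. Over all 17180 anchors 9.39% lay below and 9.71% above, and of the 102 listed genes 34 lay below. The 7 were IL1A, LIF and the chromosome 4 neighbours CXCL8, CXCL1, CXCL3, CXCL5 and CXCL6, so most of them lay at 1 locus. CXCL8 had 656 CPM in shMETTL14, 473 in shMETTL3 and 931 in shcontrol, a ratio of 0.704 (0.625 to 0.793). CXCL6 passed the size rule with 53.4 in shMETTL14, 33.7 in shMETTL3 and 109 in shcontrol, but not over 50 kb (0.70). LIF, of the IL-6 family, had 475 in shMETTL14, 571 in shMETTL3 and 688 in shcontrol, a ratio of 0.690 (0.601 to 0.794). IL1A, an upstream trigger of the SASP, had 136 in shMETTL14 and 208 in shcontrol, a ratio of 0.651 (0.502 to 0.845), but 0.791 (0.594 to 1.05) at equal depth. Its neighbour IL1B had 372 in shMETTL14 and 388 in shcontrol, a ratio of 0.959 (0.806 to 1.14). IL6 had 167 in shMETTL14 and 203 in shcontrol, 0.821 (0.640 to 1.06), an interval that holds 1. Of 43 measured pairs at these genes 8 were lower by the size rule and none higher, beside 3.88% and 3.78% of all measured pairs. Among the 8 was an IL6 pair spanning 121 kb with 14 PETs in shMETTL14 and 18 in shcontrol. The others lay at IL1A, LIF and the chromosome 4 genes CXCL8, CXCL1 and CXCL3.

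CXCL8 and CXCL6 thus sat lower in shMETTL3 than in shMETTL14, while LIF and IL1A sat lower in shMETTL14. CXCL3 (240 CPM in shMETTL14 and 168 in shMETTL3), CXCL2 (106 and 62.5) and CXCL5 (50.2 and 46.5) also sat lower in shMETTL3. Of these chromosome 4 chemokine genes only CXCL1 went the other way. It had 70.5 CPM in shMETTL14, 84.9 in shMETTL3 and 123 in shcontrol, from 66, 53 and 68 PETs. These are side by side values against 1 shared shcontrol library, and the difference between the knockdowns was not tested. SASP proteases and their inhibitors had 3 of 13 intervals below 1 and a median of -0.17, beside 34 of 102 and -0.26 for all listed genes. MMP10, a stromelysin, passed the rule at 50.2 CPM in shMETTL14 and 107 in shcontrol. Summed over every anchor within 50 kb it had 0.964 (0.835 to 1.11), while within 5 kb its neighbours MMP1 (0.955, interval 0.747 to 1.23) and MMP12 (1.03, interval 0.683 to 1.57) held 1. The plasminogen activator gene PLAU had a ratio of 0.812 (0.683 to 0.967).

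Fibroblast and matrix genes had 6 of 13 intervals below 1 and a median of -0.35, beside 34 of 102 and -0.26 for all listed genes. COL1A1, the gene of a fibrillar collagen chain, had 169 CPM in shMETTL14 and 248 in shcontrol, a ratio of 0.680 (0.537 to 0.861). LOX, the gene of a collagen cross-linking enzyme, had 57.7 in shMETTL14 and 107 in shcontrol, a ratio of 0.540 (0.366 to 0.794). THBS1, the gene of thrombospondin-1, passed the size rule with 66.2 in shMETTL14, 51.3 in shMETTL3 and 134 in shcontrol. It did not pass at equal depth (0.554) or over 50 kb (0.919, interval 0.747 to 1.13). FN1 stood at 0.656 (0.494 to 0.872), while CD44 and PDGFRB stood at 1.13 (0.913 to 1.40) and 1.1 (0.860 to 1.41).

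Among growth factors and their binding proteins 4 of 13 intervals lay below 1, close to the 34 of all 102 listed genes. BMP2 passed the rule with 33.1 CPM in shMETTL14, 33.7 in shMETTL3 and 74.3 in shcontrol, and HGF, STC1 and VEGFA had ratios of 0.637 (0.488 to 0.831), 0.651 (0.530 to 0.801) and 0.694 (0.532 to 0.907). INHBA and GDF15 were close to shcontrol, at 0.990 (0.829 to 1.19) and 0.989 (0.817 to 1.20). Of NF-kB genes, the subunit gene RELA had 45.9 in shMETTL14, 28.8 in shMETTL3 and 90.6 in shcontrol, and the inhibitor gene NFKBIA had a ratio of 0.704 (0.529 to 0.937). TNFAIP3, another inhibitor, was level in sum at 0.998 (0.830 to 1.20). Yet a pair of 177 kb at its start held 30 PETs in shMETTL14 and 7 in shcontrol and passed the rule.

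The RAS, ERK and ETS genes went both ways. Intervals above 1 were those of ETS1, ATF3, DUSP4 and DUSP5. At equal depth ETS1 (0.996 to 1.62), ATF3 (0.956 to 2.26) and DUSP4 (0.937 to 2.22) held 1, as did DUSP4 with TMM factors, and of the 4 DUSP5 did not. ETS1 had 295 CPM in shMETTL14, 285 in shMETTL3 and 221 in shcontrol, a ratio of 1.33 (1.07 to 1.66). DUSP5, an ERK phosphatase gene, had 553 in shMETTL14 and 455 in shcontrol, a ratio of 1.22 (1.04 to 1.42), and a pair of 76.8 kb at its start held 30 PETs in shMETTL14 and 7 in shcontrol. SPRED1, the gene of an inhibitor of RAS signalling, passed the rule the other way with 74.7 in shMETTL14, 70.5 in shMETTL3 and 161 in shcontrol. Over 50 kb its ratio was 0.765 (0.634 to 0.923), short of 2-fold. DUSP6 stood at 0.755 (0.627 to 0.910) and PHLDA1 at 0.831 (0.755 to 0.914). Of AP-1 and CEBP genes, FOSL1, JUNB and CEBPB had ratios of 0.763 (0.646 to 0.902), 0.616 (0.433 to 0.877) and 0.650 (0.490 to 0.863). JUN and FOSL2 had intervals that held 1.

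Cell cycle and architecture genes had no interval off 1 among 7 measured, with CDKN1A at 1.11 (0.829 to 1.49), and neither had the 6 measured genes of the m6A machinery, with WTAP at 0.775 (0.566 to 1.07).

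**Figure D5:**
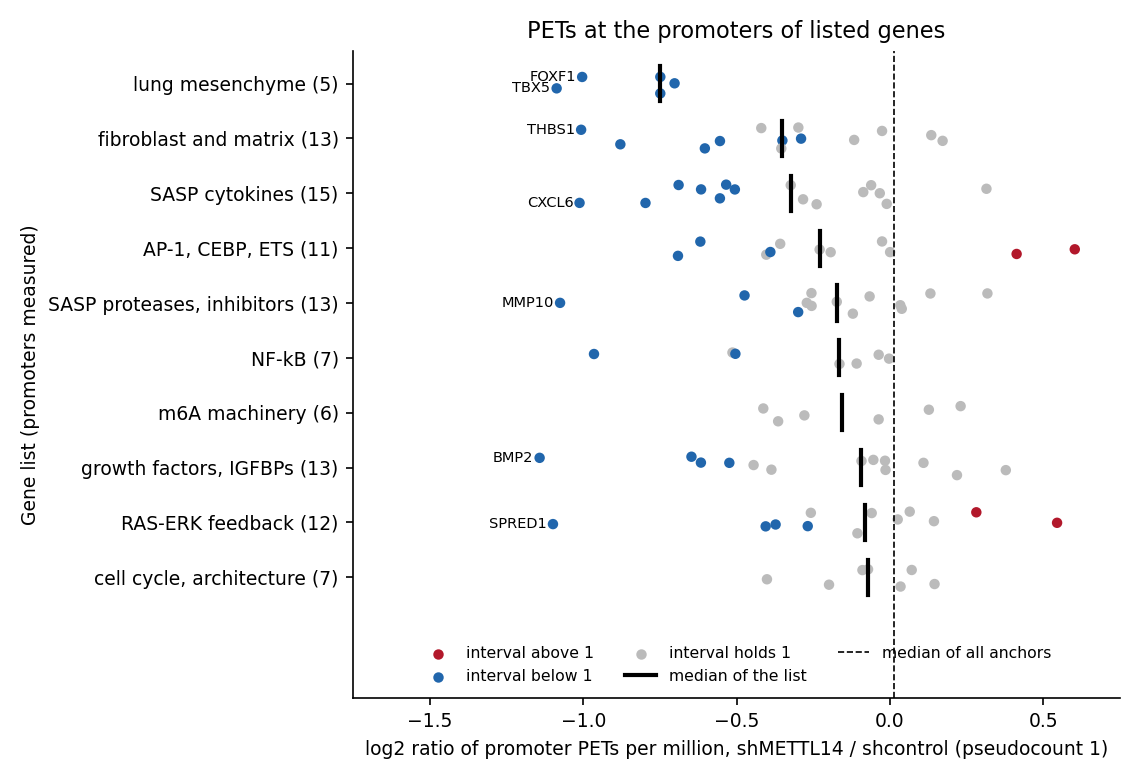
Log2 ratio of CPM at gene starts, shMETTL14 over shcontrol (horizontal), with a point per measured gene in 10 lists (rows, with the number of genes), coloured by its counting interval, and gene names for those past the size rule. All 5 lung mesenchyme genes lie below 0, and list medians run from -0.75 to -0.07, left of the dashed line at 0.01 for all anchors.

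The number of loops was similar at equal depth. A loop was called from at least 4 PETs where the authors' deposited false discovery rate was 0.01 or below. There were 14512 loops in shMETTL14 and 13388 in shcontrol, and 7966 were in both, 54.9% of the shMETTL14 loops and 59.5% of the shcontrol loops. Without the rate, pairs of 4 or more PETs numbered 29729 in shMETTL14 and 29625 in shcontrol. By span, called loops at 5 to 20 kb were 3995 in shMETTL14 and 3065 in shcontrol, and at 100 to 200 kb 2219 in shMETTL14 and 2992 in shcontrol. Pairs of 4 or more PETs at any rate differed less in both classes. At 5 to 20 kb they numbered 10226 in shMETTL14 and 9747 in shcontrol, and at 100 to 200 kb 3563 and 4065. The deposited rate is that of each library at its full depth. Its part in the loop counts, and in the hub counts below, was not tested. From 200 to 500 kb, where every pair of 4 or more PETs was also called, the count was 2497 in shMETTL14 and 2868 in shcontrol.

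Hubs were about as many and as large in shMETTL14 as in shcontrol. Anchors with 10 or more loops numbered 361 in shMETTL14 and 348 in shcontrol, 256 of them in both. The hub with most loops over both libraries, at the start of PHLDA1 (chr12:76408003-76432883), had 29 loops in shMETTL14 and 33 in shcontrol. Its level was 1115 CPM in shMETTL14 and 1342 in shcontrol. A hub 873 kb from KLF6 had 32 loops in shMETTL14 and 29 in shcontrol, and one at the start of RND3, a gene of an atypical small GTPase, had 20 in shMETTL14 and 26 in shcontrol. Of the 10 largest hubs by loops over both libraries, 9 had a lower CPM in shMETTL14, with log2 ratios down to -0.54. Those at chr12:76076226-76109274, chr12:76324190-76342181 and the PHLDA1 start belong to 1 locus. Among all anchors with 500 or more PETs the median log2 ratio was -0.06, with 35.5% of intervals below 1 and 19.3% above. Whether hubs differ from other anchors of their strength was not tested.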

How the data were processed

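H3K27ac HiChIP libraries of senescent shMETTL14 and senescent shcontrol IMR90 cells were compared, 1 of each, with shMETTL3 set beside them. The deposited files hold, per anchor pair, a count of PETs and a value from 0 to below 1, read as a q-value (false discovery rate) of the authors since it falls with PET number, though the files have no header. HiC-Pro 3.1.0 and hg19 are named per the submitters' processing notes, and which program called the interactions is not stated. The deposited counts are of read pairs without molecular identifiers, which are not independent molecules. Totals were 936492 PETs in shMETTL14 and 552029 in shcontrol.

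Anchors and pairs were matched by exact ends, and counts were expressed per 1000000 PETs of the library (CPM). Ratios have exact conditional binomial 95% intervals (scipy 1.17.1). The size rule asked for 2-fold on the log2(CPM + 1) scale, an interval without 1, and 50 PETs (anchor) or 20 PETs (pair) over both libraries. The text names the 10 highest and 10 lowest anchors with 100 or more PETs, the same for pairs with 50 or more PETs, and the groups with most pairs. Groups tied at the tenth place were all taken if the total stayed at 15 or less, a rule added after the data were seen, and left out otherwise. Thinning drew PETs without replacement (numpy 2.4.6, seed 1). edgeR 4.0.16 gave TMM factors for an alternative only. The interval and thinning code was tested on simulated data.

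No hg19 annotation was used. Start sites were written by hand from knowledge of hg19 and checked against RefSeq GRCh38.p14 by gene length, within 10 kb, or by the shift of a neighbour within 10 Mb. Of 229 genes 209 were kept, among them 134 of the 139 listed. Genes at named loci were added after those loci were seen, so a nearer gene may exist than the one named. The members and gene lists were chosen with earlier results of these data known. The METTL14 label was taken from genotype and title. Alternatives were other scalings, pseudocounts, minimum counts, thinning seeds, loop thresholds and start site windows. Results at a few listed genes and loci are not reported here.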

Additional observations from a re-analysis of the deposited data

How the results depend on the processing

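No paired analysis was possible because each group is 1 library, and for that reason no library could be left out. Counts past the size rule moved with the minimum number of PETs. Higher anchors, 463 as reported, numbered 1165 at a minimum of 20 PETs, 76 at 100 and 6 at 200, and 209 at equal depth. Lower anchors, 237 as reported, numbered 876, 59 and 13 at these minimums. Higher pairs, 355 as reported, numbered 725 at 10 PETs, 63 at 50 and 5 at 100, and 204 at equal depth. Lower pairs, 365 as reported, numbered 781, 55 and 13, and 255 at equal depth. With fewer or more features measured these counts change by construction. Shares of PETs at 5 to 50 kb had a ratio of 1.06 without spans under 20 kb, 1.06 among pairs of 2 or more PETs at equal depth and 1.06 among pairs of 4 or more PETs at equal depth. At 100 to 500 kb these ratios were 0.943, 0.891 and 0.830. At 500 to 2000 kb they were 1.05, 1.03 and 0.989 (0.946 to 1.03), where the interval holds 1, so no direction was shown among pairs of 4 or more PETs at equal depth. The cause was not tested.

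Strong contacts chosen in shMETTL3, an alternative added after the data were seen, gave 1.02 at 5 to 50 kb, 0.864 at 50 to 2000 kb and 0.817 at 100 to 500 kb. Other thinning seeds, also added, moved the ratio to 1.07 at 5 to 50 kb (seed 2), 0.781 at 50 to 2000 kb (seed 7), and 0.741 (seed 3) and 0.734 (seed 4) at 100 to 500 kb. Of listed promoters past the size rule, 7 lower as reported, 1 was lower when every anchor within 50 kb was summed. The intervals of PLAU, CEBPB and DUSP6 then held 1, at 0.862, 0.875 and 0.929. Intervals above 1, 4 as reported, numbered 1 at equal depth, 2 for anchors covering the start site and 10 within 50 kb. Loop counts stayed within 1.5 times under the thresholds and seeds run. No named anchor, pair or region changed direction under the settings run for it. Named anchors and pairs were picked for extreme ratios of at least 2-fold, and the TMM factors lay between 0.991 and 1.01. Such settings could hardly reverse these ratios, so the unchanged direction says nothing on whether they would be seen again. Precision is limited by PETs per pair, and differences between libraries of 1 condition could not be measured.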

Other observations

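Of 1121 windows of 1 Mb with 400 or more PETs over both libraries, a minimum chosen after the data were seen, the highest was chr9:110-111 Mb, which holds KLF4, a zinc finger factor of stress and differentiation. It held 497 PETs in shMETTL14 and 155 in shcontrol, a ratio of 1.89 (1.58 to 2.28), and stood at 0.845 in shMETTL3. A window on chromosome 1 at 115 to 116 Mb held 850 PETs in shMETTL14 and 287 in shcontrol, a ratio of 1.75, with 0.968 in shMETTL3. The lowest window was chr21:39-40 Mb, which overlaps the KCNJ15, ERG and ETS2 region, with 863 PETs in shMETTL14 and 919 in shcontrol. Its ratio was 0.554 (0.504 to 0.608), and shMETTL3 stood at 0.941. Another low window lay on chromosome 20 at 6 to 7 Mb, where BMP2 lies (0.606, interval 0.518 to 0.709), with 0.724 in shMETTL3. On chromosome 17, 79 to 80 Mb had 0.624 (0.555 to 0.702), with 0.559 in shMETTL3. By whole chromosome, ratios ran from 0.890 (0.876 to 0.905) for chromosome 17 to 1.07 (1.05 to 1.1) for chromosome 18. Chromosomes 22, 19 and 16 were also below 1, at 0.904, 0.920 and 0.930.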
